A study of Populus trichocarpa and Populus tremula x Populus alba with 22 samples.

Results

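The class III homeodomain-leucine zipper (HD-ZIP III) genes of poplar, PtrHB1 to PtrHB8, were followed as 8 gene IDs of the 42950 in each deposited table. They were chosen by ID, in the order Potri.004G211300 (PtrHB1), Potri.009G014500 (PtrHB2), Potri.011G098300 (PtrHB3), Potri.001G372300 (PtrHB4), Potri.001G188800 (PtrHB5), Potri.003G050100 (PtrHB6), Potri.006G237500 (PtrHB7) and Potri.018G045100 (PtrHB8), and all 8 were found in all 4 tables. The names come with the choice of IDs, since the tables do not pair IDs with names, and none could be checked against a sequence here.

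The data were 22 RNA-seq libraries from 2 experiments. In the first, Populus trichocarpa plants stood in hydroponic culture for 21 days at 10 µM Fe (control) or at 0 µM Fe (deprived), and young leaf and 3rd internode of 3 plants per Fe level were taken, so that 6 plants gave 12 libraries. In the second, leaf and stem were from plants of Populus tremula x Populus alba, 4 months old and transformed either with a PtrbHLH011 overexpression construct or with an empty vector, each genotype giving 3 leaf and 2 stem libraries. The empty-vector plants are thus transgenic too. The sources used here name neither the promoter of the construct nor the number of independent lines, and the names of the overexpression libraries begin alike. The level of PtrbHLH011, a transcription factor of the bHLH class, was not checked, because no source used here ties its name to an ID, and for the same reason the tissues could not be checked against marker genes.

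HD-ZIP III proteins are plant transcription factors that carry a homeodomain, a leucine zipper and a lipid-binding START domain. They set the upper side of leaves and the pattern of vascular strands, and their transcripts are cut by microRNAs of the miR165 and miR166 families. In Arabidopsis the family holds REVOLUTA, PHABULOSA, PHAVOLUTA, CORONA (also called ATHB15) and ATHB8, and poplar has duplicate pairs of these. PtrHB1 and PtrHB2 are the REVOLUTA type, which acts in leaf polarity and in the vascular cambium. PtrHB3 and PtrHB4 are the PHABULOSA and PHAVOLUTA type, known in Arabidopsis for leaf polarity. PtrHB5 and PtrHB6 are the CORONA type, expressed in vascular tissue. PtrHB7 and PtrHB8 are the ATHB8 type, an early marker of procambium, the tissue from which xylem and phloem arise.

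Libraries held 26620695 to 68689878 reads, as recovered from the deposited normalised counts, and every HD-ZIP III gene had between 152 and 16579 reads in each of them. The lowest of these counts has a relative counting error of 8.11%. That error covers counting alone. Levels across tissues are given as CPM, the recovered reads of a gene scaled to the same total in every library, with no test, since the tables were normalised separately. Within a table, values are the authors' normalised counts. Levels are not compared between genes, as gene lengths were not at hand.

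For each of the 8 genes, the highest of the 8 group means in CPM was that of a transgenic stem group. For PtrHB1 the margin was small, 29.0 CPM in empty-vector stem against 26.4 CPM in deprived internode. Species, library type and RNA kit differ between the experiments, so tissue and experiment cannot be told apart in this ranking. In empty-vector plants the 2 stem libraries lay above the 3 leaf libraries for 8 of 8 genes, where 37.0% of 23372 genes did so. The CORONA type stood furthest apart. PtrHB5 was at 516.6 and 550.8 CPM in the stems and at 12.5, 15.9 and 21.6 CPM in the leaves, 32.1-fold higher by the means. PtrHB6 was at 217 and 223 CPM in the stems and at 5.26, 9.43 and 10.97 CPM in the leaves, 25.7-fold higher. For both genes every stem lay far above every leaf. Relative to their means, the 2 stems were closer together than the 3 leaves. PtrHB8, of the ATHB8 type, was 11.9-fold higher in stem and PtrHB4 7.85-fold. The ratios were 4.55 for PtrHB7, 4.26 for PtrHB2, 3.33 for PtrHB3 and 1.73 for PtrHB1. In overexpression plants 8 of 8 genes were again higher in both stems than in the 3 leaves, against 33.2% of all genes, with PtrHB4 at 19.3-fold, PtrHB6 at 15.2-fold and PtrHB5 at 27.6-fold. Summed over the family, the level was 1620 and 1622 CPM in empty-vector stems and 166 to 229 CPM in their leaves. In bulk tissue, fewer cells of a type and less RNA per cell cannot be told apart.

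The 3rd internode is a young stem segment. Its step above leaf at 10 µM Fe was smaller than that of empty-vector stem for each of the 8 genes in CPM. At 0 µM Fe PtrHB1 did not follow this in CPM, at 1.93-fold against 1.73-fold. PtrHB2 at 0 µM Fe, at 2.75-fold, was above the 2.58-fold of overexpression stem. The experiments differ in species and library type, so these steps are set side by side as description. At 10 µM Fe the internode libraries lay above the leaf libraries for 7 of 8 genes, where 41.6% of 27351 genes did so, and PtrHB7 overlapped. At 0 µM Fe this held for 8 of 8 genes, against 46.2% of all genes. PtrHB8 was at a mean of 62.0 ± 44.8 CPM in control internodes and 8.64 ± 1.16 CPM in control leaves (SD, n = 3 each), 7.18-fold apart or log2 2.84. Without the internode of plant P17, where the gene was at 112.8 CPM, the log2 difference was 2.09. PtrHB6 was 5.88-fold, PtrHB4 4.08-fold and PtrHB5 3.69-fold higher in internode than in leaf. PtrHB2 was 2.2-fold higher and PtrHB3 1.97-fold. PtrHB1 and PtrHB7 were 1.44-fold and 1.30-fold higher, close to the median of all genes, which stood at log2 0.32 in the same direction. Another scaling (TMM, which sets the typical gene equal between libraries) moved that median by -0.31. It left 6 of 8 genes higher in every control internode and put PtrHB7 at log2 -0.02, so no direction is given for PtrHB7 in this tissue pair. At 0 µM Fe it left 7 of 8 and put PtrHB3 at log2 -0.02, where CPM gave 1.25-fold. In empty-vector plants the same scaling moved the median by 0.15 and left 8 of 8. It also reversed both exceptions seen in CPM at 0 µM Fe. PtrHB1 was at log2 0.61 in deprived internode, below 0.97 in empty-vector stem. PtrHB2 was at log2 1.12 in deprived internode, below 1.65 in overexpression stem.

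**Figure D1:**
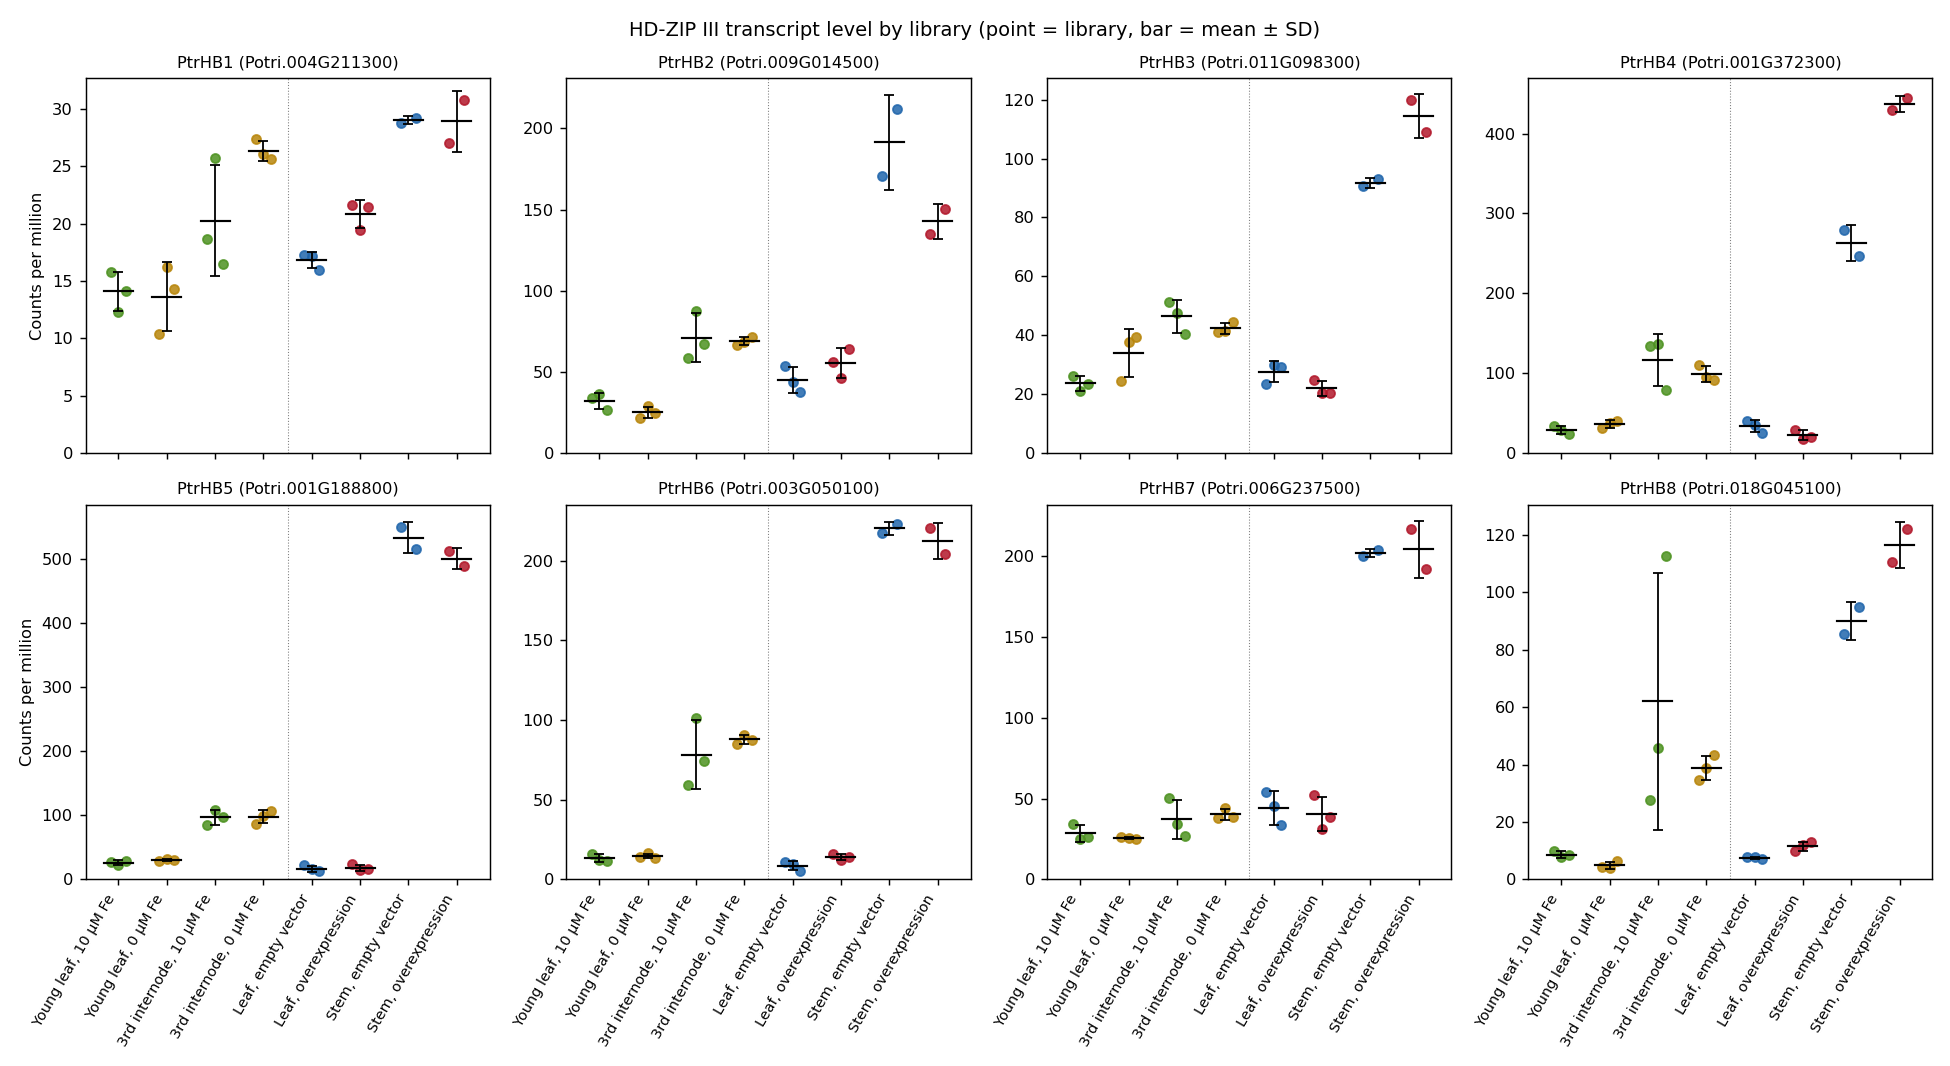
CPM (y axis, linear from 0) of each HD-ZIP III gene in 22 libraries, by group (x axis). Points are libraries and bars give mean ± SD; the dotted line parts the Fe experiment from the overexpression experiment. PtrHB5 and PtrHB6 are high in stems and low in leaves, and 1 control internode stands above the rest for PtrHB8.

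Plant codes tie a leaf to an internode library, so the step can be read within each plant. The internode was above the leaf in 6 of 6 plants for each of the 8 genes in CPM. PtrHB8 ranged from 2.79-fold in plant P11 to 13.6-fold in plant P17, and PtrHB6 from 3.67-fold to 8.30-fold. PtrHB7 ranged from 1.02-fold to 1.75-fold, and the lowest plants of PtrHB3 and PtrHB1 were at 1.05-fold and 1.16-fold. These 3 low ends lie below the median of all genes between the tissues, so no direction is drawn from them. The 3 control plants stood at 4.03, 4.69 and 3.40 for PtrHB4 and the 3 deprived plants at 2.96, 2.90 and 2.39. For this gene the Fe levels did not overlap, with a smaller step between the tissues in every deprived plant. It was 1 of 8 genes, where the ratios of 21.8% of all 27351 genes were separate and those of 10.2% were lower without Fe (ratios of CPM + 0.1).

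**Figure D2:**
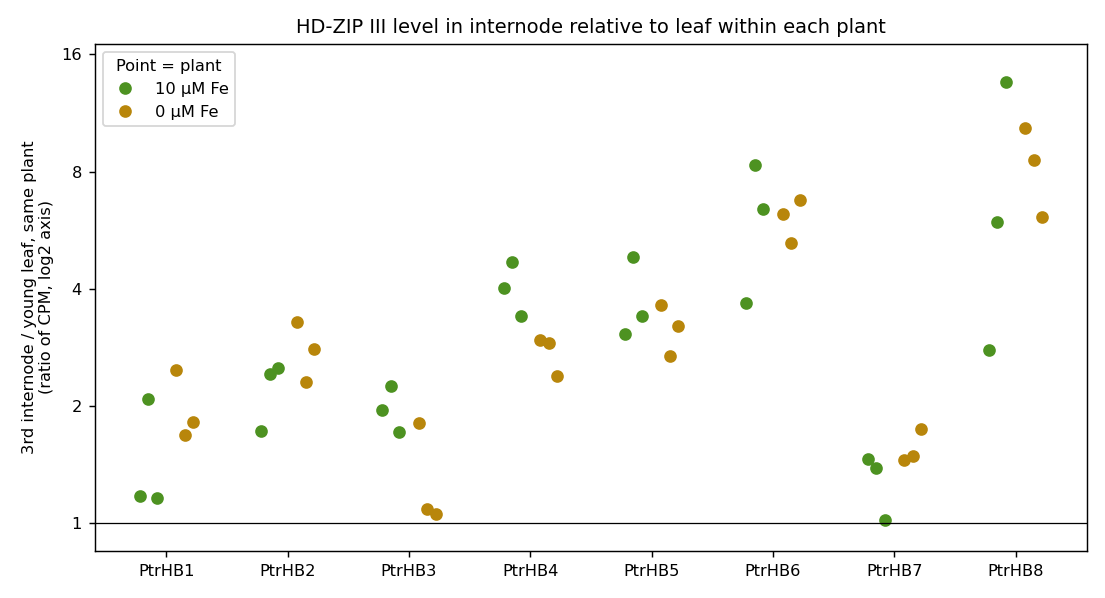
Ratio of CPM in the 3rd internode to CPM in the young leaf of the same plant (y axis, log2 scale) for each gene (x axis), with 3 plants at 10 µM Fe and 3 at 0 µM Fe. All points lie above 1 in CPM (the lowest of PtrHB1, PtrHB3 and PtrHB7 by less than the median of all genes), and for PtrHB4 the deprived plants lie below the control plants.

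In young leaf, the comparison asked how 21 days without Fe changed the transcripts. None of the 8 genes passed limma's test, where 6.31% of 28632 genes did; 2 of the 8 had an unadjusted p under 0.05, by edgeR also 0 were called with 2 at that unadjusted p, and DESeq2 called 1. The nearest was PtrHB8, of the procambium marker type. Its normalised counts were 538, 427 and 481 in control leaves and 213, 200 and 321 in deprived leaves. The groups did not overlap, and the mean without Fe was 0.507 of the control mean. The log2 change was -1.0 ± 0.24 (SE, n = 3 each, limma adjusted p = 0.0519, unadjusted 0.00350). DESeq2 gave an adjusted p of 0.00437 for it and edgeR 0.0606.

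PtrHB2, of the REVOLUTA type, had normalised counts of 1824, 2020 and 1551 in control leaves and 1105, 1428 and 1241 in deprived leaves. All deprived leaves were below all controls. Its log2 change was -0.51 ± 0.17 (SE, limma adjusted p = 0.106). PtrHB7 did not overlap either, at 1586 ± 249 against 1297 ± 42.3 (SD, n = 3 each, limma adjusted p = 0.319). In all, 3 of 8 genes had groups that did not overlap, all lower without Fe, where 31.2% of all genes did not overlap and 15.6% were lower. The remaining 5 overlapped between Fe levels, with log2 differences from -0.22 for PtrHB1 to 0.35 for PtrHB3. The interval for PtrHB6, from -0.41 to 0.40, and that for PtrHB5, from -0.27 to 0.45, show the size of change that these libraries leave room for. The median over the 8 genes was -0.11 and over all genes tested -0.01.

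The same question in the 3rd internode gave 0 of 8 genes by limma, with 1 at an unadjusted p under 0.05, where 0.712% of 29219 genes were called. By edgeR 0 of 8 were called and 0 had an unadjusted p under 0.05, and DESeq2 also called 0. With the replicate number as a block, limma again called 0 of 8. PtrHB3, of the PHABULOSA and PHAVOLUTA type, came closest. It had 2435, 2313 and 2301 normalised counts in control internodes and 1878, 1897 and 2058 in deprived ones. It was the 1 member whose groups did not overlap, where 27.4% of all genes were separate and 12.7% lower, and the log2 change was -0.27 ± 0.11 (SE, n = 3 each, limma adjusted p = 0.255). Its partner PtrHB4 had 6389, 6644 and 4510 in controls and 5028, 4354 and 4229 without Fe. These ranges overlapped through the third control, plant P17 (log2 -0.35, limma adjusted p = 0.374). The CORONA type overlapped between Fe levels. PtrHB5 was at log2 -0.13 with an interval of -0.55 to 0.28, and PtrHB6 at 0.05 with an interval of -0.47 to 0.58. PtrHB1, PtrHB2 and PtrHB7 also overlapped, at log2 0.26, -0.17 and 0.01.

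PtrHB8 was set by a single library in the internode. Its control values were 1319, 2212 and 6437 normalised counts, the last from plant P17, and the deprived values were 1582, 1768 and 2005. All deprived internodes lay between the first and the second control. The log2 change was -0.58 ± 0.55 (SE, n = 3 each, limma adjusted p = 0.607), and without plant P17 it was 0.06 (limma adjusted p = 0.921). In P17 the gene was 2.91-fold above the next control. That far above both other controls were 873 genes in P17 (2.99% of those tested), 404 in P11 and 146 in P13. The other 7 HD-ZIP III genes were not raised that far in P17, and in its leaf PtrHB8 stood at 481, between the other controls. The internodes of P17 and P7, replicate 3 of each Fe level, carry sample numbers apart from all other libraries. Whether they were handled apart is not known here and was not tested. A depth-scaled chi-square per gene was 16.9 between deprived replicates 1 and 2, and 70.2 and 59.5 between these and replicate 3. For controls the values were 150.3 against 270.3 and 201.5.

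The Fe responses of leaf and internode were compared within plants. None of the 8 genes differed by limma, where 0.918% of 27351 genes did, and 2 had an unadjusted p under 0.05. Both were the PHABULOSA and PHAVOLUTA type. For PtrHB4 the leaf change minus the internode change was log2 0.55, with an interval of 0.07 to 1.02 (limma adjusted p = 0.253, unadjusted 0.0293). For PtrHB3 it was 0.62, with an interval of 0.02 to 1.22 (limma adjusted p = 0.299, unadjusted 0.0451). Both differences missed the threshold over all genes. PtrHB1, PtrHB2 and PtrHB5 were at log2 -0.47, -0.34 and 0.22. PtrHB6, PtrHB7 and PtrHB8 were at -0.06, -0.29 and -0.42.

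In leaves of PtrbHLH011 overexpression plants, 2 of the 8 genes fell by limma and 0 rose, where 21.3% of 27024 genes were called, 8.61% as lower and 12.7% as higher. They were the PHABULOSA and PHAVOLUTA pair. PtrHB4 had 1183, 1061 and 782 normalised counts in empty-vector leaves and 745, 506 and 519 in overexpression leaves. The groups did not overlap, although the highest overexpression leaf came close to the lowest control. The log2 change was -0.77 ± 0.21 (SE, n = 3 each, limma adjusted p = 0.0349). PtrHB3 had 691, 896 and 920 in empty-vector leaves and 632, 569 and 518 in overexpression leaves. Here too all overexpression leaves were lower, and the log2 change was -0.54 ± 0.15 (SE, n = 3 each, limma adjusted p = 0.0430). Both calls were made by edgeR (adjusted p = 0.0419 for PtrHB4 and 0.0476 for PtrHB3). Neither was firm. Leaving out each library in turn, the PtrHB4 call was lost in 4 of 6 fits (without empty-vector replicate 1 or 2, or overexpression replicate 2 or 3, limma adjusted p up to 0.130). That of PtrHB3 was lost in 5 of 6, all but the fit without empty-vector replicate 1 (limma adjusted p up to 0.153).

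The other 6 genes did not pass the test in leaf. PtrHB6 had 324, 282 and 165 normalised counts in empty-vector leaves and 406, 338 and 353 with the construct. All 3 overexpression leaves were higher, at log2 0.56 ± 0.26 (SE, limma adjusted p = 0.159). PtrHB8 had 230, 231 and 225 in empty-vector leaves and 247, 333 and 327 with the construct. It did not overlap either, at log2 0.39 (limma adjusted p = 0.148). PtrHB1 was the tightest gene of the family in leaf, at 508 ± 5.35 against 545 ± 2.78 (SD, n = 3 each). Its groups did not overlap although the means differed by only 7.25%, and its log2 change of 0.10 did not pass (limma adjusted p = 0.561). Groups did not overlap for 5 of 8 genes, 3 higher and 2 lower with the construct, where 41.1% of all genes were separate, 21.9% higher and 19.1% lower. PtrHB2, PtrHB5 and PtrHB7 overlapped between genotypes, at log2 0.10, -0.07 and -0.35.

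In stem, 2 of the 8 genes rose and 1 fell by limma, where 37.2% of 24810 genes were called, 20.0% as higher and 17.2% as lower. PtrHB4 rose from 8603 and 7312 normalised counts in empty-vector stems to 12723 and 12738 in overexpression stems. The genotypes were far apart, and the means differed 1.60-fold (log2 0.68 ± 0.12, SE, n = 2 each, limma adjusted p = 0.00880). PtrHB8 rose from 2636 and 2804 to 3279 and 3502, 1.25-fold (log2 0.32 ± 0.09, SE, n = 2 each, limma adjusted p = 0.0430). PtrHB2 fell from 5269 and 6276 to 3996 and 4312, 1.39-fold lower (log2 -0.47 ± 0.12, SE, n = 2 each, limma adjusted p = 0.0280). Groups did not overlap for 6 of 8 genes, 3 higher (PtrHB3, PtrHB4 and PtrHB8) and 3 lower, but in stem 74.1% of all genes were separate, 37.2% higher and 36.9% lower.

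The PtrHB8 call in stem was not made by edgeR (adjusted p = 0.0512), after quantile normalisation (limma adjusted p = 0.149, log2 0.21), with no filter on low values (limma adjusted p = 0.0576) or without empty-vector replicate 1 (limma adjusted p = 0.0771). Leaving out replicate 1 or replicate 2 of the overexpression stems ended all 3 calls, in fits that take the spread from the empty-vector stems alone and call 7.46% and 0.00403% of all genes. PtrHB4 then had limma adjusted p of 0.0919 and 0.103 at an almost equal log2 change of 0.68 in both. Without empty-vector replicate 2, PtrHB2 was at limma adjusted p = 0.0557. PtrHB3, at 2796 and 2751 against 3548 and 3129, missed the threshold (log2 0.26, limma adjusted p = 0.0878). PtrHB5 had 16999 and 15278 normalised counts in empty-vector stems and 15165 and 14034 with the construct. The change, log2 -0.14 with an interval of -0.43 to 0.14, did not pass (limma adjusted p = 0.370). PtrHB6, PtrHB7 and PtrHB1 were at log2 -0.11, -0.04 and -0.06.

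**Figure D3:**
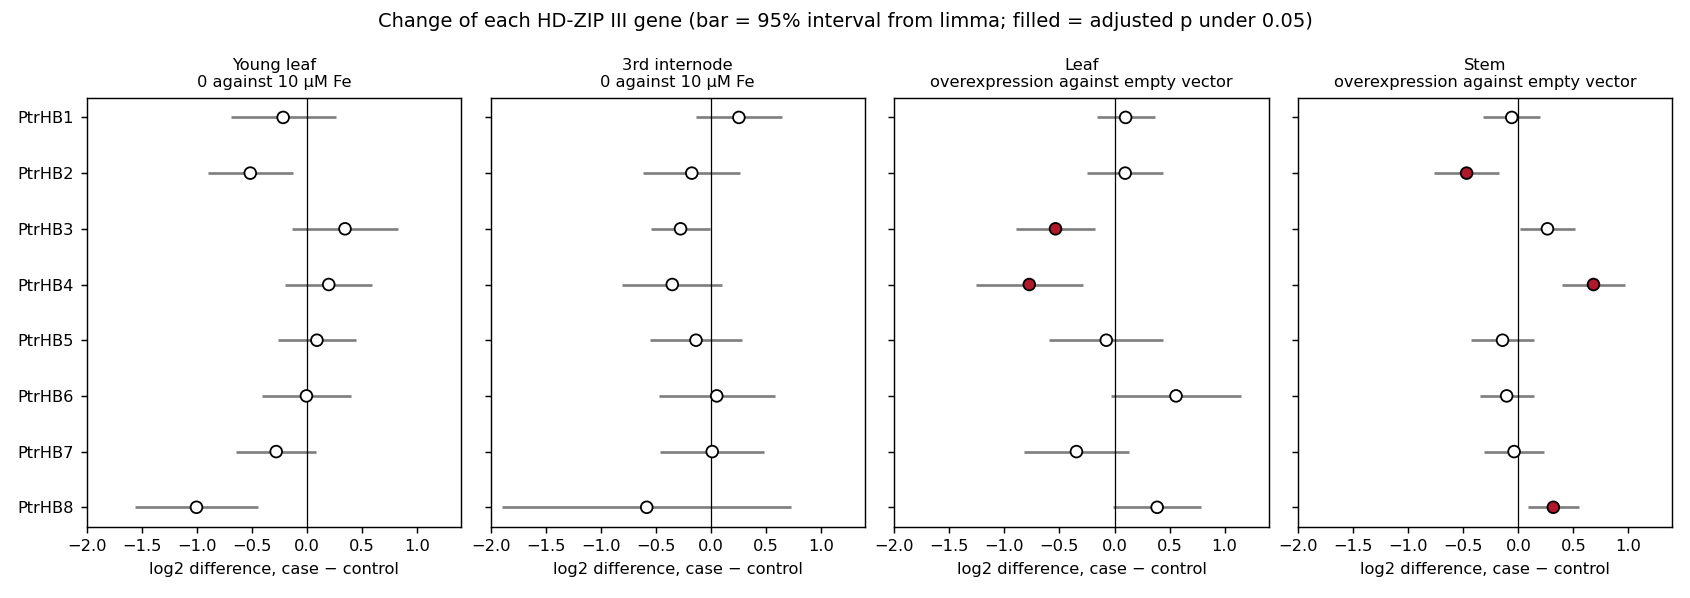
log2 difference between case and control (x axis) of each HD-ZIP III gene (y axis) in the 4 comparisons, with 95% intervals from limma. Filled points passed an adjusted p of 0.05: PtrHB3 and PtrHB4 are lower in overexpression leaf, and in stem PtrHB4 and PtrHB8 are higher and PtrHB2 is lower.

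The overexpression effects in leaf and stem were then tested against each other. They differed for 2 of the 8 genes by limma, where 36.2% of 23372 genes differed and 18.8% were lower in leaf, and both again were the PHABULOSA and PHAVOLUTA pair. For PtrHB4 the leaf effect minus the stem effect was log2 -1.46 ± 0.29 (SE, limma adjusted p = 0.00420), a fall in leaf and a rise in stem. For PtrHB3 it was -0.80 ± 0.21 (SE, limma adjusted p = 0.0138). The PtrHB4 difference was called in each of 10 leave-one-out fits, and that of PtrHB3 lost it without overexpression stem replicate 1 (limma adjusted p = 0.0636). PtrHB2 went the other way, with a leaf minus stem difference of 0.57 (limma adjusted p = 0.0652), which edgeR called (adjusted p = 0.0481). PtrHB6 also had a positive difference, at 0.66 to 0.69 by edgeR and by limma with a pseudocount of 5, not called in either. PtrHB1 was at 0.16 to 0.24 in these 2 fits, not called. For PtrHB5, PtrHB7 and PtrHB8 the differences were 0.07, -0.31 and 0.07. With an interval of -0.60 to 0.73, a difference for PtrHB5 was not detectable with these libraries.

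Side by side, the experiments gave the following values for some of the genes. PtrHB8 was at log2 -1.0 in deprived leaf, not called, and at 0.39 in overexpression leaf, not called. PtrHB2 was at -0.51 in deprived leaf, not called, and at 0.10 in overexpression leaf. In the stem tissues PtrHB4 was at -0.35 in deprived internode, not called, and at 0.68 in overexpression stem, called. PtrHB2 had the same sign in both stem tissues, at -0.17, not called, and at -0.47, called. Signs were also alike for PtrHB7 in leaf (-0.28 and -0.35) and PtrHB5 in stem tissues (-0.13 and -0.14), none of them called. PtrHB3 and PtrHB4 were at 0.35 and 0.20 in deprived leaf, not called, and at -0.54 and -0.77 in overexpression leaf, both called. PtrHB8 was at -0.58 in deprived internode, not called, and at 0.32 in overexpression stem, called. The remaining signs differed, in part between small values. No share of all genes with opposed signs was computed. These differences between experiments were not tested, since species, library type and RNA kit differ as well.

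Ratios within a duplicate pair are free of library scaling. Their absolute level depends on gene length and on how near-identical copies were counted, so only shifts are described. PtrHB3 over PtrHB4 was lower in the stem tissues: its log2 ratio ran from -0.46 to 0.01 in the 6 young leaves and from -1.52 to -0.97 in the 6 internodes. In the transgenic plants it ran from -0.77 to 0.23 in the 6 leaves and from -2.02 to -1.41 in the 4 stems. PtrHB4 thus took a larger part of the pair in stem tissue in both experiments. PtrHB7 over PtrHB8 also shifted without overlap, by a median log2 of -1.91 from young leaf to internode and of -1.28 from leaf to stem. PtrHB5 over PtrHB6 was lower in internode than in young leaf without overlap (median shift -0.82), but overlapped between leaf and stem (median shift 0.59). PtrHB1 over PtrHB2 overlapped between young leaf and internode (median shift -0.57) and was lower in stem than in leaf without overlap (-1.08).

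Between treatment and control, none of these ratios was shown to shift. Of 16 tests, 4 pairs in 4 comparisons, groups were separate in 6, and the smallest adjusted p was 0.533 (exact permutation test, two-sided; 3 against 3 cannot go below p = 0.1, nor 2 against 2 below 0.333). PtrHB7 over PtrHB8 was at log2 1.79, 1.69 and 1.65 in control leaves and at 2.65, 2.66 and 1.99 in deprived leaves. PtrHB5 over PtrHB6 was at 0.97, 0.75 and 1.24 in empty-vector leaves and at 0.54, 0.29 and 0.23 in overexpression leaves. In both cases the groups were separate, at the smallest p the design allows. The other separate cases were PtrHB1 over PtrHB2 in internode (shift 0.43) and in overexpression stem (0.41), and in overexpression stem PtrHB3 over PtrHB4 (-0.42) and PtrHB7 over PtrHB8 (-0.36). Thus 3 of the 6 lay in stem, with 2 against 2 libraries. Levels of single genes were separate for 31.2% of all genes in young leaf and 27.4% in internode. In overexpression leaf the share was 41.1% and in overexpression stem 74.1%. No such share was computed for ratios of other gene pairs, so the 6 cases are a description.

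**Figure D4:**
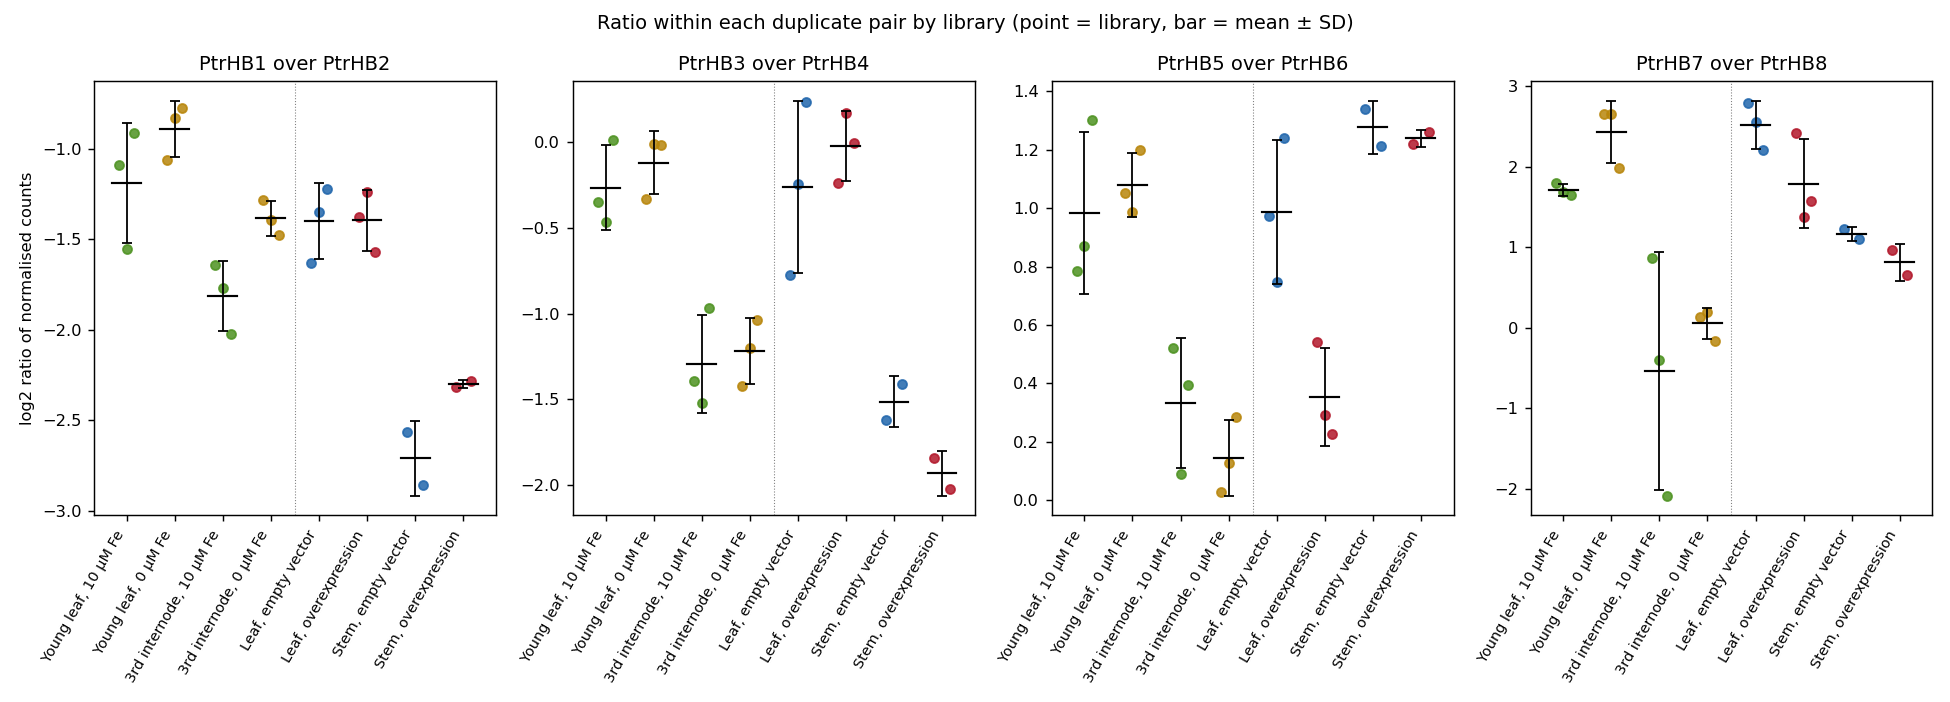
log2 ratio of normalised counts within each duplicate pair (y axis) by group (x axis). Points are libraries and bars give mean ± SD. PtrHB3 over PtrHB4 and PtrHB7 over PtrHB8 are lower in internode and stem than in leaf, and PtrHB7 over PtrHB8 is higher in deprived than in control young leaves.

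Across the libraries of each experiment, which hold both leaf and stem tissue, the levels of the 8 genes were correlated. Pearson's r of log2(CPM + 1) between pairs of the 8 genes ran from 0.54 to 0.99 over the 12 Fe libraries, with a median of 0.83. Over the 10 overexpression libraries it ran from 0.85 to 0.99, with a median of 0.96. These libraries share tissue and depth, so the values are a description. In the Fe libraries PtrHB6 followed the family mean most closely (r = 0.993) and PtrHB7 least (0.727), and in the overexpression libraries PtrHB5 did so most closely (0.999). That mean contains the gene itself, which raises the r of members and not that of IDs outside the family. Outside the family, the IDs whose pattern was most like the mean of the 8 genes, of 17404 with a mean of at least 5 CPM in each experiment, were Potri.011G011100 (r = 0.990 over 12 libraries and 0.993 over 10), Potri.010G043500 (0.989 and 0.995) and Potri.018G120200 (0.990 and 0.988). Potri.011G011100 stood at 51.8 CPM in empty-vector stems and 29.5 CPM in control internodes and was listed at 0 in control and empty-vector leaves. By the lower r, members ranked from 1 (PtrHB6) to 3354 (PtrHB7) of the 17404 IDs, with PtrHB1 at 1688 and PtrHB3 at 2375. Many IDs outside the family thus followed the mean more closely than some members. Correlation within a tissue was not computed.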

How the data were processed

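Each deposited table holds, per gene and library, a signal in the form of gene counts that the authors scaled by 1 size factor per library; the 4 tables were scaled apart from each other. The submitters' processing notes list DESeq2 2.11.40.7, HISAT2 2.2.1 and StringTie 2.2.1 and give no roles. The sources used here state no genome build, no strand setting and no handling of near-identical copies, so values of duplicate pairs are uncertain. Libraries of Populus tremula x Populus alba carry Populus trichocarpa gene IDs. Per the labels' protocols, the Fe libraries are poly(A)-selected Illumina libraries and the others strand-specific DNBSEQ libraries, with different RNA kits, so the experiments were not fitted together. Dividing by the smallest step of a library returned whole reads for 100% of values (tolerance 0.001), which may be rounded estimates.

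The main test was limma 3.58.1 in R 4.3.3, with its prior variance following the mean, on log2(value + 1). It covered all genes with at least 10 in as many libraries as the smaller group holds, two-sided, with Benjamini-Hochberg adjustment at 0.05. The Fe difference between tissues used the leaf minus internode difference per plant, with the trend on the mean level, and the overexpression difference a tissue by genotype term. Alternatives were edgeR 4.0.16 and DESeq2 1.42.0 on recovered reads, other scalings, pseudocounts and filters, sample weights, a replicate block and leaving out libraries. The fit was tested on simulated data. Same-numbered internode libraries had correlations of 0.27, 0.12 and 0.48, but control 1 with deprived 2 also had 0.18. Replicate 3 of either Fe level with replicate 1 or 2 of the other ran from -0.38 to -0.14. Same-numbered libraries in overexpression leaf had positive values too (0.29, 0.05 and 0.11). No label says that the number pairs libraries, and it joins other plants in young leaf than in internode. Whether libraries are paired is thus not settled, and the block serves only as an alternative fit. Where no label states separate plants, p-values measure the spread between libraries. The members, lists and tests were chosen with earlier results of these data known. All 8 genes were tested in every comparison. Outside the family, the 3 IDs with the highest of the lower of 2 correlations are named. The 6 lists of related genes had 0 members, since 0 IDs matched the reference table (assembly P.trichocarpa_v4.1), and so gene lengths, promoters and proteins were not used here.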

Additional observations from a re-analysis of the deposited data

Results flagged for a closer look

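The effect of PtrbHLH011 overexpression differed between leaf and stem, by the test of the difference itself, for 2 HD-ZIP III genes. For Potri.001G372300 (PtrHB4) the leaf minus stem difference was log2 -1.46, and for Potri.011G098300 (PtrHB3) it was log2 -0.80. In each, all 3 overexpression leaves lay below all 3 empty-vector leaves and both overexpression stems lay above both empty-vector stems. Such differences were common in these data (36.2% of 23372 genes), and the sources used here do not say how many transgenic lines stand behind a genotype.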

How the results depend on the processing

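In young leaf, where 0 of the 8 genes were called, DESeq2 called 1 (16.6% of all genes), a filter at 50 called 1 (7.45%) and sample weights called 3 (22.8%), against 6.31% of all genes in the main test; no leave-one-out fit called any. In overexpression leaf, with 2 called, sample weights called 4 (45.1% of all genes, against 21.3%), the replicate block 1 (23.5%) and leave-one-out fits 0 to 1. In overexpression stem, with 3 called, edgeR, quantile normalisation and no filter each called 2 and leave-one-out fits called 0 to 2, with 0 without either overexpression library. For the overexpression difference between tissues, with 2 called, leave-one-out fits called 1 to 3. The internode and the Fe difference stayed at 0 under every alternative run, but some of these runs called almost no gene. In internode, the fits without control replicate 2 or without deprived replicate 1, 2 or 3 called 0 of 29219 genes. For the Fe difference, the fits without plant 7, 13, 22 or 30 called 0.0292% to 0.0475% of all genes. A count of 0 of 8 says little in these fits. DESeq2 called 11.4% of all genes in internode. With the block, all-gene calls went from 131 higher and 77 lower to 235 and 166 in internode. For the Fe difference, with the internode numbers as blocks, they went from 61 and 190 to 132 and 369. No label states that the number pairs libraries, so these fits do not show a pairing. In the other tables same-numbered libraries had correlations of -0.25 to 0.09 (young leaf), 0.05 to 0.29 (leaf) and 0.07 (stem). With 2 libraries per group in stem, same-number and cross-number values mirror each other, so the 0.07 cannot show a pairing. The second empty-vector stem and the second overexpression stem also carry different numbers in their library names. In young leaf the block gave 134 and 209 in place of 870 and 937. In leaf it gave 3734 and 2630 in place of 3434 and 2326, and in stem 5472 and 4902 in place of 4963 and 4267. Signs turned only among uncalled values; most were near 0, but PtrHB8 stood at -0.58 in internode and -0.42 for the Fe difference. In young leaf PtrHB6 was at log2 0.014 by edgeR, 0.026 after quantile normalisation and 0.060 with sample weights. In internode PtrHB5 was at 0.038 after quantile normalisation, PtrHB6 at -0.088 with sample weights and PtrHB7 at -0.0080 by edgeR and -0.012 by DESeq2. Leave-one-out ranges that crossed 0 were, in young leaf, -0.023 to 0.18 for PtrHB5 and -0.070 to 0.12 for PtrHB6; in internode, -0.18 to 0.23 for PtrHB6, -0.12 to 0.21 for PtrHB7 and -1.09 to 0.057 for PtrHB8; in overexpression leaf, -0.0020 to 0.21 for PtrHB2 and -0.25 to 0.11 for PtrHB5; and in overexpression stem, -0.13 to 0.011 for PtrHB1 and -0.15 to 0.073 for PtrHB7. For the Fe difference they were -0.29 to 0.30 for PtrHB6 and -1.06 to 0.17 for PtrHB8, and for the overexpression difference -0.10 to 0.26 for PtrHB5 and -0.0068 to 0.21 for PtrHB8. The causes were not tested.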

Other observations

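Within empty-vector leaves, 5 of the 8 genes were highest in replicate 1 and 7 of 8 were lowest in replicate 3. PtrHB6 spanned 324 to 165 normalised counts and PtrHB5 636 to 391 there, while PtrHB3 was lowest in replicate 1 (691) and highest in replicate 3 (920). In overexpression leaves 6 of 8 were highest in replicate 1, among them PtrHB7 at 1319 against 865 and 972. These values are given without a test, and the share of all genes with such an order was not computed.

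In control internodes the replicate SD of log2 values was 1.17 for PtrHB8, above that of 90.5% of genes tested, and 0.04 for PtrHB3, above that of 1.53%. In deprived internodes the 8 genes had SDs from 0.04 to 0.17, where the median over all genes was 0.18.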
